A study of Mus musculus with 4 samples.

Results

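The 4 Hox clusters and the 1 Mb on each side of them were examined in Hi-C profiles of mouse haematopoietic progenitor cells, as Stag2 knock-out against Stag2 wildtype. Bins of 20 kb were members if their midpoint lay in a cluster interval or within 1 Mb of it, on the mm9 build. This gave 410 of 131957 bins, and 385 of them carried an insulation score in all 4 libraries (117252 in the whole genome). The clusters were taken as Hoxa on chromosome 6 (52100001 to 52220000, 6 bins), Hoxb on chromosome 11 (96040001 to 96240000, 10 bins), Hoxc on chromosome 15 (102740001 to 102880000, 7 bins) and Hoxd on chromosome 2 (74480001 to 74600000, 6 bins). The anterior side of a cluster is the side of its lowest-numbered Hox gene, and the posterior side is that of group 13.

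There were 2 Stag2 knock-out and 2 Stag2 wildtype libraries, each from bone marrow cells depleted of lineage-positive cells, so that a mixture of progenitors was profiled. The labels used here give no allele, deletion method, strain or age for either genotype. They also leave unsaid whether replicates are different animals, and the p-values therefore cover the variation among 4 libraries, part of which may be technical. The files hold chromosome contacts and no RNA, so neither the deletion nor the cell type nor the activity of a Hox gene was checked in them. The insulation score of a bin rises with the number of contacts that span it relative to its neighbourhood, so troughs mark domain boundaries and a higher score means more contacts across the bin. Sequencing depth was unknown. Over the 385 Hox bins, Pearson's r was 0.991 between the knock-out libraries, 0.995 between the wildtype libraries and 0.958 to 0.975 between genotypes, as a description over neighbouring bins that share reads.

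Stag2 is a subunit of cohesin, the ring complex that extrudes chromatin loops and stops at sites bound by CTCF. Hox genes encode the transcription factors that give a segment its position along the body axis, and their order on the chromosome follows the order in which they act. Each cluster lies between regulatory landscapes on its anterior and posterior side, and in limb buds the Hoxd genes are known to switch contacts from one side to the other. In blood, Hoxa and Hoxb genes are the ones known for activity in stem and progenitor cells, where Hoxa9 and Hoxb4 promote self-renewal, while Hoxc and Hoxd genes are known for activity mainly in other tissues.

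The 4 clusters are copies of an ancestral cluster and carry 39 Hox genes in the RefSeq table used here (11 in Hoxa, 10 in Hoxb, 9 in Hoxc and 9 in Hoxd). They also share microRNA genes, whose mature sequences are shown because they set the clusters side by side at the level of the DNA that was duplicated. All 5 microRNA genes of the miR-10 and miR-196 families matched the RefSeq table (GRCm38.p6). Mir10a lies in Hoxb and Mir10b in Hoxd, while Mir196b lies in Hoxa, Mir196a-1 in Hoxb and Mir196a-2 in Hoxc. The sequences run 5′ to 3′ and the capitals mark the seed, bases 2 to 8.
miR-10a-5p: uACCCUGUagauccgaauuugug
miR-10b-5p: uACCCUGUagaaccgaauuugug
miR-196a-5p: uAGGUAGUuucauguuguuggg
miR-196b-5p: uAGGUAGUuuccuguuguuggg
The Hoxb and Hoxd copies of miR-10 share their seed and differ at U12A, counted from 1 at the 5′ end of miR-10a-5p. The miR-196 copies share another seed, and miR-196a-5p differs from miR-196b-5p at A12C. Mir196a-1 and Mir196a-2 give the same mature sequence from Hoxb and Hoxc. Members of both families are known to repress Hox transcripts.

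The flanks were duplicated with the clusters, and the RefSeq order of protein-coding genes within 1 Mb showed the same families on the same side. A gene of the Nfe2 family, which encodes basic leucine zipper transcription factors, lay on the anterior side of all 4 clusters. These were Nfe2l3 at Hoxa, Nfe2l1 at Hoxb, Nfe2 at Hoxc (a subunit of an erythroid and megakaryocytic factor) and Nfe2l2 at Hoxd. Chromobox genes, which encode heterochromatin proteins, lay on the anterior side of 3 clusters (Cbx3 at Hoxa, Cbx1 at Hoxb and Cbx5 at Hoxc). Hnrnpa genes, which encode RNA-binding proteins, also lay on the anterior side of 3 (Hnrnpa2b1 at Hoxa, Hnrnpa1 at Hoxc and Hnrnpa3 at Hoxd). The Src-family adaptor genes Skap2 and Skap1 were the nearest anterior neighbours of Hoxa and Hoxb. On the posterior side, Evx1 and Evx2, homeobox genes of the even-skipped family, were next to Hoxa and Hoxd. Atp5g1, Atp5g2 and Atp5g3, which encode the c subunit of mitochondrial ATP synthase, lay on the posterior side of Hoxb, Hoxc and Hoxd. These families were picked from the neighbour lists as a description. The table's build differs from that of the scores, so no gene was placed on a bin.

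The Hoxa cluster lay at an insulation minimum between high-scoring flanks, and both flanks scored higher in the Stag2 knock-out. Hoxb lay on a slope with moderate scores on both sides, and both of its flanks also scored higher in the knock-out. At Hoxd, the 20 kb scores were negative across most of the region. They were higher in the knock-out on the posterior side and lower far out on the anterior side. At Hoxc, differences were small except near the far end of the posterior flank. Inside the 4 clusters themselves, 0 of 29 bins passed the threshold in limma, where 22.4% of all bins passed in either direction. Of the 29, which are neighbours that share contacts, 4 had an unadjusted p under 0.05.

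**Figure D1:**
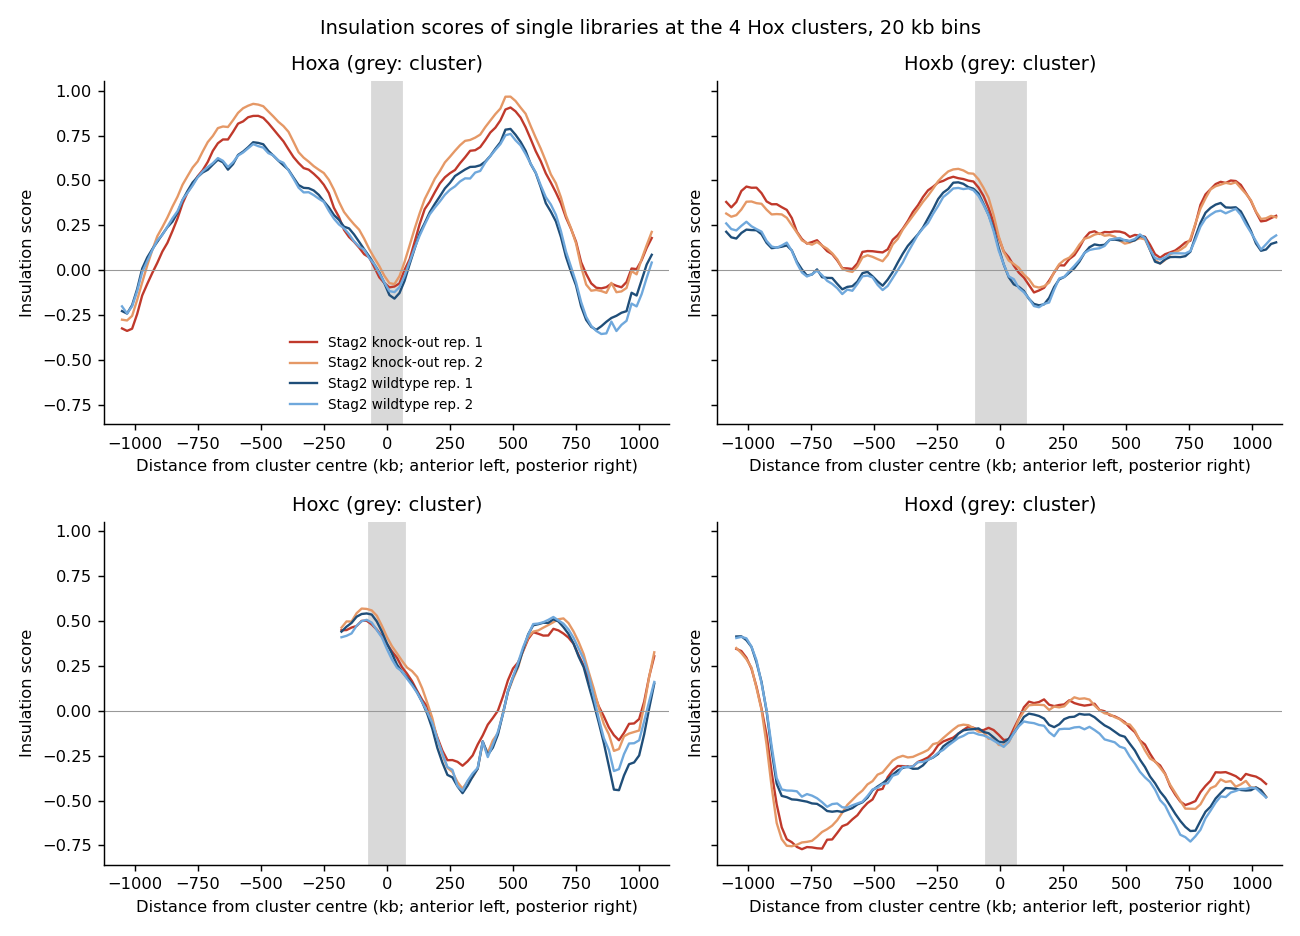
Insulation score of each library (vertical axis, score units) against distance from the cluster centre (kb, anterior left, posterior right), with the cluster in grey, knock-out libraries in red and orange and wildtype libraries in blue. Hoxa lies in a trough between peaks where the knock-out curves are above the wildtype curves, and the anterior Hoxc curve ends where scores end, 120 kb from the cluster.

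In the fit per bin (limma with Benjamini-Hochberg adjustment over 117252 bins, adjusted p below 0.05), 151 of the 385 Hox bins were higher in the knock-out and 16 were lower, so that 39.2% were higher. In the whole genome, 11.2% of bins were higher and 11.2% lower, and in bins with a positive eigenvector in both genotypes, to which most of the Hox bins belong, 19% were higher and 4.37% lower. The median difference over the Hox bins, knock-out minus wildtype, was 0.0869, beside -0.00721 over all bins and 0.0367 over bins with a positive eigenvector. Of the 385 differences, 336 were positive, and the share of positive differences over all bins was not counted. Both knock-out libraries lay above both wildtype libraries in 275 Hox bins, where 31% of all bins did so.

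The called bins were unevenly divided. Hoxa had 68 of 106 bins higher and 0 lower, and Hoxb had 55 of 110 higher and 0 lower. Hoxc had 7 of 63 higher and 0 lower, and Hoxd had 21 of 106 higher and 16 lower. The share higher was 64.2% at Hoxa, 50% at Hoxb, 11.1% at Hoxc and 19.8% at Hoxd. Of all bins 11.2% were higher and 11.2% lower, so the Hoxc share was that of the genome. All 9 bins of 200 kb at Hoxc had a positive eigenvector in both genotypes. Of 20 kb bins with a positive eigenvector in both, 19% were higher and 4.37% lower, so the Hoxc share was below theirs. Of bins with a negative eigenvector in both genotypes, found here only at Hoxd, 3.67% were higher and 17.8% lower. The called bins formed long runs, and all of them lay in flanks, at least 90 kb from a cluster edge. Scores of neighbouring bins are computed from overlapping contacts, so a run is not a number of separate events. Without wildtype replicate 1 the bins called higher were 73 (22 at Hoxb), and without wildtype replicate 2 they were 64 (41 at Hoxa and 16 at Hoxb). In the same fits, the share of all bins called in either direction was 7.86% and 8.06%, beside 22.4% with all libraries. Without knock-out replicate 2, 6 Hoxa bins were called lower. Subtracting a running mean over 1.02 Mb from each library left 0 bins called by limma in the Hox regions and in the genome, with 97 Hox bins at an unadjusted p under 0.05.

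**Figure D2:**
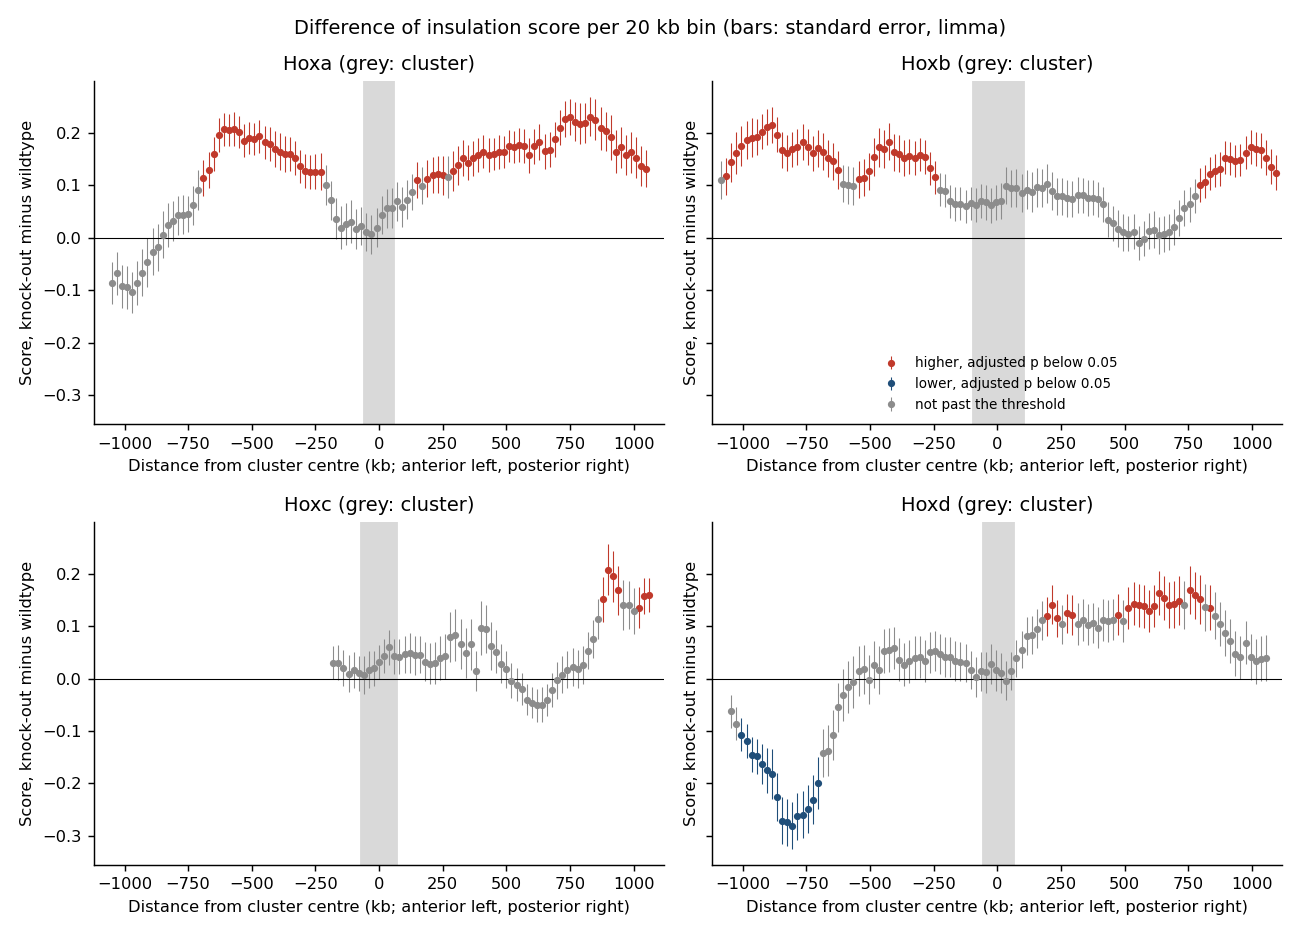
Difference of insulation score per 20 kb bin (vertical axis, knock-out minus wildtype, score units, with the standard error of the fit) against distance from the cluster centre (kb). Red bins passed the threshold as higher in the knock-out, blue bins as lower, and grey bins did not pass. Coloured bins lie in the flanks and none in the grey cluster bands.

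The Hoxa cluster, which contains Hoxa9 and Hoxa10, lay in a local trough of the profile. Its mean score over 6 bins was -0.0592 and -0.0206 in knock-out replicates 1 and 2, against -0.0798 and -0.0648 in wildtype replicates 1 and 2. All 4 libraries were slightly below 0, and the knock-out libraries lay above the wildtype ones. The difference was 0.0324 (SE 0.0346, n = 2 per genotype, adjusted p = 0.505, limma on running means of 6 bins, 27.4% of which passed genome-wide). In the 10 kb profiles, 1 per genotype, the difference over the cluster was -0.0265. The lowest bin of the cluster, at 52180001 to 52200000, scored -0.0911 and -0.0775 in the knock-out and -0.159 and -0.122 in the wildtype. Its difference of 0.0562 did not pass (SE 0.0374, adjusted p = 0.292).

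The posterior Hoxa flank, on the side of Evx1, Hibadh (an enzyme of valine breakdown), Tax1bp1 (an autophagy receptor) and Jazf1 (a zinc finger protein), had the largest mean difference of the 12 segments (4 clusters and 8 flanks). Its mean over 1 Mb was 0.373 and 0.412 in the knock-out libraries, against 0.242 and 0.224 in the wildtype libraries. The knock-out libraries were high and the wildtype libraries low, with a gap between them that exceeded the distance within either genotype. The difference was 0.159 (SE 0.0207, n = 2 per genotype, adjusted p = 0.000981, limma on running means of 50 bins). Of such 1 Mb windows, 46.3% passed in either direction genome-wide, and 1.44% had a larger difference. In all 50 bins both knock-out libraries lay above both wildtype libraries, where 31% of all bins did so. Of the 50, 44 bins were called higher, beside 11.2% of all bins and 19% of those with a positive eigenvector in both genotypes. A run of 39 called bins covered 780 kb, from 52440001 to 53220000. Its mean score was 0.382 and 0.412 in the knock-out, against 0.230 and 0.211 in the wildtype.

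Within that flank, by distance from the cluster in 200 kb steps, the difference was 0.0973, 0.147, 0.171, 0.214 and 0.168. In the block between 600 and 800 kb the mean score was 0.124 and 0.117 in the knock-out and -0.100 and -0.0863 in the wildtype, so it was positive in both knock-out libraries and negative in both wildtype libraries. The bin with the largest rise, at 52980001 to 53000000 and 770 kb from the cluster, scored -0.0981 and -0.110 in the knock-out, against -0.333 and -0.338 in the wildtype. Its difference was 0.231 (SE 0.0380, adjusted p = 0.00602). It lay beside the lowest bin of the flank, at 53000001 to 53020000, where the difference was 0.225 (SE 0.0393, adjusted p = 0.00714).

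The anterior Hoxa flank, on the side of Skap2, Snx10 (a sorting nexin of endosomes), Cbx3 and Hnrnpa2b1, had higher scores in its middle part, between 170 and 630 kb from the cluster. Its mean was 0.410 and 0.494 in the knock-out libraries and 0.376 and 0.369 in the wildtype libraries. The knock-out libraries stood above the wildtype libraries but differed more from each other. The difference was 0.0795 (SE 0.0267, adjusted p = 0.0350), and 14.2% of 1 Mb windows had a larger one. In a single run, 24 bins were called higher, from 51460001 to 51940000, where 11.2% of all bins were. The bin with the largest rise, at 51580001 to 51600000, scored 0.829 and 0.902 in the knock-out and 0.661 and 0.656 in the wildtype (difference 0.207, SE 0.0320, adjusted p = 0.00531). Over the 120 kb next to the cluster the difference was 0.0256 (adjusted p = 0.627), and between 800 and 1000 kb it was -0.0687, with 0 bins called in either. In the 10 kb profiles, 1 per genotype, the difference over the whole flank was 0.0266. The call for the whole flank did not hold without knock-out replicate 2 (0.0376, adjusted p = 0.146), wildtype replicate 1 (0.0827, adjusted p = 0.126) or wildtype replicate 2 (0.0764, adjusted p = 0.144), or with each library scaled to unit SD (0.130 in SD units, adjusted p = 0.0852).

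The Hoxb cluster, which contains Hoxb4 and Mir10a, scored 0.181 and 0.204 in the knock-out libraries, against 0.116 and 0.113 in the wildtype libraries over 10 bins. In each of its 10 bins both knock-out libraries were higher than both wildtype libraries, where 31% of bins genome-wide were. The difference was 0.0778 (SE 0.0302, n = 2 per genotype, adjusted p = 0.0723, limma on running means of 10 bins, 30.5% of which passed). It passed when each library was centred on its chromosome median (0.117, adjusted p = 0.0158). Scores sloped across the cluster in all libraries. The highest bin, at its anterior edge, scored 0.461 and 0.506 in the knock-out and 0.427 and 0.414 in the wildtype. The lowest, at the posterior edge, scored -0.0413 and -0.0250 in the knock-out and -0.116 and -0.123 in the wildtype.

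The anterior Hoxb flank, on the side of Skap1, Snx11, Cbx1, Nfe2l1 and Copz2 (a coat protein of Golgi vesicles), scored higher in the knock-out over its whole length. Its mean was 0.286 and 0.266 in the knock-out libraries, against 0.135 and 0.127 in the wildtype libraries. The difference was 0.145 (SE 0.0188, n = 2 per genotype, adjusted p = 0.000981), and 2.47% of 1 Mb windows had a larger one. All 50 bins had both knock-out libraries above both wildtype libraries, where 31% of all bins did. Of the 50, 39 bins were called higher, beside 11.2% of all bins and 19% of those with a positive eigenvector in both genotypes. The runs of called bins went from 96380001 to 96700000 (16 bins) and from 96760001 to 97220000 (23 bins). The bin with the largest rise, at 97020001 to 97040000 and 790 kb from the cluster, scored 0.367 and 0.312 in the knock-out and 0.126 and 0.125 in the wildtype (difference 0.215, SE 0.0346, adjusted p = 0.00576). Between 400 and 600 kb from the cluster, mean scores were 0.0628 and 0.0518 in the knock-out and -0.0577 and -0.0774 in the wildtype, so that the genotypes lay on either side of 0.

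The posterior Hoxb flank, on the side of Ttll6 (a tubulin glutamylase), Calcoco2 (an autophagy receptor) and Atp5g1, changed mainly at its far end. Its mean was 0.204 and 0.196 in the knock-out libraries and 0.121 and 0.119 in the wildtype libraries. The libraries of each genotype lay close together and the genotypes apart. The difference was 0.0802 (SE 0.0182, adjusted p = 0.00670), and 13.9% of 1 Mb windows had a larger one. The flank had 16 bins called higher, all between 95040001 and 95360000, where 11.2% of all bins were called higher. By distance from the cluster in 200 kb steps, the difference was 0.0871, 0.0544, 0.00802, 0.0983 and 0.153. Between 400 and 600 kb the genotypes overlapped, with 0.136 and 0.112 in the knock-out and 0.110 and 0.121 in the wildtype. The call for the flank did not hold without wildtype replicate 1 (0.0812, adjusted p = 0.0785), without wildtype replicate 2 (0.0792, adjusted p = 0.0769), with the median over bins (0.0526, adjusted p = 0.113) or over 500 kb in place of 1 Mb (0.0574, adjusted p = 0.0882).

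At Hoxc, scores were given for only part of the anterior flank. The unscored margin at the end of chromosome 15 was 495 kb, close to the median of 495 kb over the 20 chromosomes, which left 6 bins (120 kb) of the anterior flank, the side of Smug1 (a uracil-DNA glycosylase), Cbx5, Hnrnpa1 and Nfe2. Those bins scored 0.473 and 0.523 in the knock-out libraries and 0.501 and 0.457 in the wildtype libraries. The genotypes overlapped, and the difference was 0.0194 (SE 0.0318, adjusted p = 0.673), or -0.00573 without knock-out replicate 2 and -0.00280 without wildtype replicate 2. The Hoxc cluster scored 0.370 and 0.419 in the knock-out and 0.378 and 0.349 in the wildtype, again with overlap. Its difference was 0.0313 (SE 0.0314, adjusted p = 0.474, limma on running means of 7 bins, 28.2% of which passed).

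The posterior Hoxc flank, on the side of Calcoco1, Atp5g2 and Atf7 (a leucine zipper transcription factor), scored 0.0804 and 0.0625 in the knock-out libraries and 0.00135 and 0.0322 in the wildtype libraries. The difference of 0.0547 missed the threshold (SE 0.0203, adjusted p = 0.0504), and passed without knock-out replicate 2 (0.0637, adjusted p = 0.0178) and with chromosome medians removed (0.102, adjusted p = 0.00210). The 7 called bins lay in the last 200 kb, where the mean was -0.0154 and -0.0514 in the knock-out and -0.234 and -0.149 in the wildtype. Both genotypes were below 0 there, the knock-out less so. The bin with the largest rise, at 101900001 to 101920000, scored -0.135 and -0.223 in the knock-out and -0.439 and -0.335 in the wildtype (difference 0.208, SE 0.0492, adjusted p = 0.0180). The 7 calls became 17 without knock-out replicate 2, 14 with chromosome medians removed and 0 without wildtype replicate 1.

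The Hoxd cluster, which contains Mir10b, scored -0.126 and -0.164 in the knock-out libraries and -0.150 and -0.166 in the wildtype libraries. The genotypes overlapped, and the difference was 0.0127 (SE 0.0356, n = 2 per genotype, adjusted p = 0.812), or -0.00632 without knock-out replicate 1. In the 10 kb profiles, 1 per genotype, the cluster averaged 0.112 in the knock-out and 0.0857 in the wildtype. The sign of its score thus depended on the profile. The posterior Hoxd flank, on the side of Evx2, Lnpk (a protein that shapes the endoplasmic reticulum), Atp5g3 and Atf2 (a transcription factor of the stress response), scored -0.191 and -0.209 in the knock-out libraries, against -0.287 and -0.331 in the wildtype libraries. All were negative, and the knock-out libraries were closer to 0. All 50 bin differences were positive, and 21 bins were called higher, where 11.2% of all bins were called higher. The difference was 0.109 (SE 0.0236, adjusted p = 0.00552), and 7.01% of 1 Mb windows had a larger one. It was 0.0864 without wildtype replicate 2 (adjusted p = 0.0746). The bin with the largest rise was also the lowest of the flank, at 73780001 to 73800000, and scored -0.515 and -0.545 in the knock-out and -0.670 and -0.728 in the wildtype (difference 0.169, SE 0.0462, adjusted p = 0.0293). Of the 21 calls, the count was 7 without knock-out replicate 1 and 0 without either wildtype replicate.

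The anterior Hoxd flank, on the side of Mtx2 (a protein of the mitochondrial outer membrane), Hnrnpa3 and Nfe2l2, was the only flank with bins called lower in the fit of all 4 libraries. Its far part scored -0.437 and -0.444 in the knock-out libraries, against -0.248 and -0.222 in the wildtype libraries, over a run of 16 called bins from 75240001 to 75560000. The libraries of each genotype lay close together, and the knock-out was lower by more than the spread within either. Of all bins, 11.2% were called lower. The 16 calls became 8 without wildtype replicate 1 and 5 without wildtype replicate 2. The lowest block, between 600 and 800 kb from the cluster, had a mean score of -0.746 and -0.711 in the knock-out and -0.517 and -0.480 in the wildtype. The bin with the largest fall, at 75340001 to 75360000, scored -0.758 and -0.746 in the knock-out and -0.495 and -0.448 in the wildtype (difference -0.280, SE 0.0451, adjusted p = 0.00576). Next to the cluster the sign was the other way, with a difference of 0.0312 over the first 200 kb and 0.0426 over the next, and 0 bins called.

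Over the whole anterior Hoxd flank the mean was -0.352 and -0.319 in the knock-out libraries and -0.277 and -0.269 in the wildtype libraries. The difference was -0.0625 (SE 0.0227, adjusted p = 0.0470), and it hides that 24 of 50 bin differences were positive. Of 1 Mb windows, 74.3% had a larger, that is less negative or positive, difference. The median over bins gave 0.0354 (adjusted p = 0.396), and the inner 500 kb gave 0.0324 (adjusted p = 0.407). The call did not hold without knock-out replicate 1 (-0.0461, adjusted p = 0.131), wildtype replicate 1 (-0.0666, adjusted p = 0.177) or wildtype replicate 2 (-0.0584, adjusted p = 0.223).

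**Figure D3:**
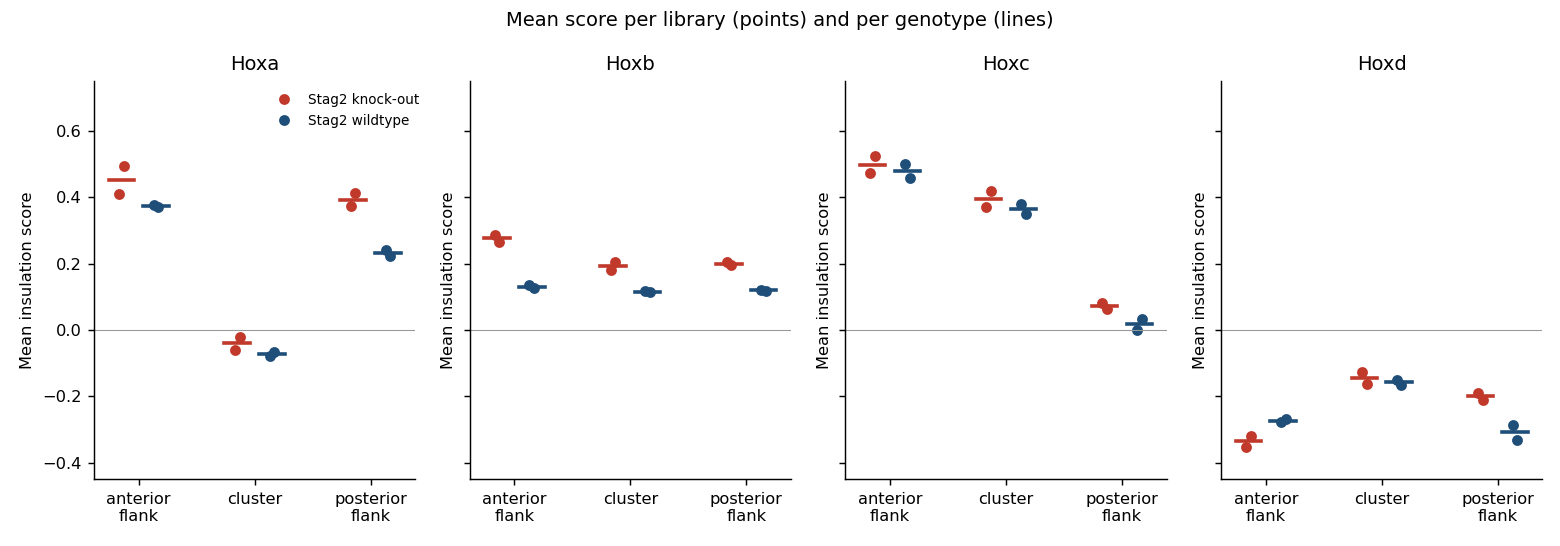
Mean insulation score (vertical axis, score units) of the anterior flank, the cluster and the posterior flank at each locus, as points per library and a line per genotype, with the knock-out in red left of the wildtype in blue. The anterior Hoxc flank holds 6 scored bins. Knock-out points lie above wildtype points in both flanks of Hoxa and Hoxb, and below them in the anterior flank of Hoxd.

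The comparison of anterior with posterior flanks asked whether the anterior minus the posterior mean differed between genotypes. At Hoxd it did, with flank differences of opposite sign (-0.0625 anterior and 0.109 posterior). The change tested is the anterior difference minus the posterior one. At Hoxa and Hoxb, where both differences were positive, it compares their sizes, but at Hoxd, with opposite signs, it does not. The anterior minus the posterior mean at Hoxd was -0.161 and -0.110 in the knock-out libraries, against 0.00921 and 0.0616 in the wildtype libraries. Both knock-out libraries were thus negative and both wildtype libraries positive. The change was -0.171 (SE 0.0307, n = 2 per genotype, adjusted p = 0.00566, limma over 107446 positions of the genome, 25.8% of which passed). At Hoxa the anterior minus the posterior mean was 0.0374 and 0.0820 in the knock-out and 0.134 and 0.146 in the wildtype. The change of -0.0799 did not pass (SE 0.0279, adjusted p = 0.0605), but did without knock-out replicate 2 (-0.102, adjusted p = 0.00462) and with unit SD per library (-0.191 in SD units, adjusted p = 0.0462). It was -0.0381 with the median over bins (adjusted p = 0.497) and -0.00801 over 500 kb flanks (adjusted p = 0.888). At Hoxb it was 0.0819 and 0.0695 in the knock-out and 0.0143 and 0.00763 in the wildtype. The change of 0.0647 did not pass (SE 0.0262, adjusted p = 0.0944, where 26.6% of positions passed), but did with the median over bins (0.132, adjusted p = 0.0308), and was -0.0246 over 120 kb a side. Over 1 Mb the values at Hoxa and Hoxb thus had opposite signs, although neither passed. At Hoxc, over 120 kb a side, it was 0.389 and 0.393 in the knock-out and 0.439 and 0.391 in the wildtype, a change of -0.0239 (SE 0.0384, adjusted p = 0.759, where 0% of positions passed). The Hoxd change was -0.145 without wildtype replicate 2 (adjusted p = 0.0617), -0.103 with the median over bins (adjusted p = 0.104) and -0.0753 over 500 kb flanks (adjusted p = 0.192).

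When every flank was shortened to the 120 kb next to its cluster, a length chosen after the data had been seen, to match Hoxc, none of the 8 flanks passed. The largest of these differences was at the posterior Hoxb flank, with -0.0818 and -0.0678 in the knock-out libraries and -0.164 and -0.173 in the wildtype libraries (difference 0.0939, SE 0.0343, adjusted p = 0.0645).

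Hoxa and Hoxb, the clusters known for activity in blood progenitors, were set against Hoxc and Hoxd. Over whole regions, 123 of 216 scored bins of Hoxa and Hoxb were higher in the knock-out and 0 lower, and 28 of 169 of Hoxc and Hoxd were higher and 16 lower. These are 56.9% and 16.6% higher, where 11.2% of all bins were. Genome-wide, 19% of bins with a positive eigenvector in both genotypes were higher, and 3.67% of those with a negative one. The pairs of clusters differed in this respect. In each genotype, the eigenvector was positive in 24 of 24 bins of 200 kb at Hoxa and Hoxb, and in 15 of 21 at Hoxc and Hoxd. At Hoxc alone it was positive in 9 of 9, yet 11.1% of scored bins were higher. At Hoxd alone it was positive in 6 of 12, and 19.8% were higher. The median difference was 0.126 over the Hoxa and Hoxb bins and 0.0413 over the Hoxc and Hoxd bins. The Hoxc count lacks most of its anterior flank. The mean of the Hoxa and Hoxb regions minus that of the Hoxc and Hoxd regions was 0.359 and 0.384 in the knock-out libraries, against 0.299 and 0.291 in the wildtype libraries. The difference of 0.0764 gave an exact permutation p of 0.333, two-sided. That is the smallest p this permutation test allows with 2 libraries against 2, so it could not pass whatever the values. This whole-region contrast was added after seeing the data.

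The contrast of the clusters alone was smaller. The mean of the Hoxa and Hoxb clusters minus that of the Hoxc and Hoxd clusters was -0.0613 and -0.0359 in the knock-out libraries and -0.0959 and -0.0673 in the wildtype libraries (difference 0.0330, exact permutation p = 0.333, two-sided). When the mean of both flanks was first taken from each cluster, the sign turned. That contrast was -0.454 in each knock-out library, against -0.428 and -0.388 in the wildtype libraries (difference -0.0461, exact permutation p = 0.333). The Hoxa cluster stood below its flanks by the most, at -0.451 and -0.474 relative to them in the knock-out and -0.389 and -0.361 in the wildtype. The Hoxc and Hoxd clusters scored above the mean of their flank bins in all 4 libraries. At Hoxc that mean, which also enters the contrast, holds 6 anterior and 50 posterior bins. The Hoxc cluster scored below its anterior flank in all 4 libraries, with genotype means of 0.395 against 0.498 in the knock-out. In the wildtype these means were 0.364 against 0.479.

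The Hox regions held 9 domain boundaries, and 0 of them changed in depth past the threshold. Depth is how far a local minimum of the mean profile of all 4 libraries lies below the peaks on its sides, and only minima of at least 0.2 were used. Of 1905 boundaries in the genome 1.21% passed, 0.262% as deeper and 0.945% as shallower in the knock-out. At an unadjusted p under 0.05, the boundary 640 kb anterior of Hoxd was the only one of the 9. The boundary inside the Hoxa cluster had a depth of 0.462 and 0.540 in the knock-out libraries and 0.508 and 0.449 in the wildtype libraries. The genotypes overlapped there, with a difference of 0.0227 (SE 0.0448, adjusted p = 0.816) whose sign turned without knock-out replicate 2 (-0.0162) or wildtype replicate 2 (-0.00663), with a reach of 100 kb (-0.00111) and with unit SD (-0.00710). The boundary 60 kb posterior of Hoxb had a depth of 0.391 and 0.390 in the knock-out and 0.414 and 0.416 in the wildtype (difference -0.0241, SE 0.0370, adjusted p = 0.771).

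The nearest boundary to Hoxc, 230 kb on its posterior side, had a depth of 0.506 and 0.633 in the knock-out and 0.628 and 0.611 in the wildtype. The genotypes overlapped, and the difference was -0.0499 (SE 0.0521, adjusted p = 0.667), or 0.0134 without knock-out replicate 1. The boundary 640 kb anterior of Hoxd, at the inner end of the run of lower bins, was deeper in both knock-out libraries. Its depth was 0.350 and 0.267 in the knock-out and 0.205 and 0.192 in the wildtype, a difference of 0.110 (SE 0.0340, adjusted p = 0.105). The boundary 690 kb posterior of Hoxd had a depth of 0.262 and 0.271 in the knock-out and 0.319 and 0.341 in the wildtype (difference -0.0634, SE 0.0326, adjusted p = 0.323). No boundary of this minimum depth lay in the Hoxd cluster. With a minimum of 0.1, 1 did, and its depth was 0.150 and 0.171 in the knock-out and 0.119 and 0.111 in the wildtype.

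**Figure D4:**
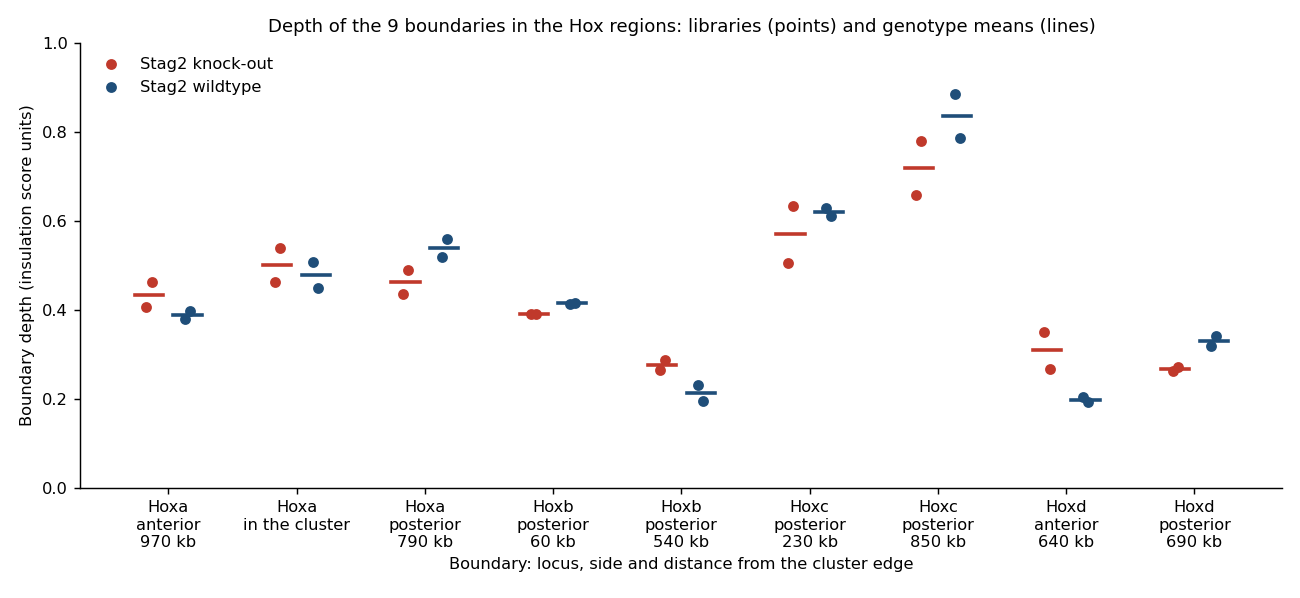
Depth of the 9 boundaries in the Hox regions (vertical axis, score units), named by side and distance from the cluster edge, as points per library and a line per genotype, with the knock-out in red left of the wildtype in blue. The points of the genotypes overlap at the boundary inside Hoxa and at the one 230 kb posterior of Hoxc. They lie apart at the other 7, deeper in the knock-out at 3 of them and shallower at 4, and 0 of the 9 passed the threshold. Of all 1905 boundaries, 61.3% were shallower in the knock-out, and the share that lies apart was not counted.

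The compartment eigenvector separates a chromosome into 2 sets of regions that prefer contacts within their set. It was given as 1 profile per genotype in 200 kb bins, so its differences have no replicate check, and its sign was not tied to activity in the sources used here. All 12 bins at Hoxa, all 12 at Hoxb and all 9 at Hoxc were positive in both genotypes. At Hoxd, 6 of 12 were positive in the knock-out and 6 of 12 in the wildtype. Hoxd thus differed from the other clusters in its surroundings, with a positive peak over most of the cluster and negative bins on both sides.

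Over the cluster bins the eigenvector moved little. They averaged 0.0425 in the knock-out and 0.0420 in the wildtype at Hoxa, and 0.0381 in the knock-out and 0.0359 in the wildtype at Hoxb. They averaged 0.0387 in the knock-out and 0.0400 in the wildtype at Hoxc, and 0.00895 in the knock-out and 0.0103 in the wildtype at Hoxd. Each of these means is over 2 bins of 200 kb. The Hoxd mean includes the bin from 74600001, which only starts at the cluster's edge. The bin from 74400001, which holds the cluster, was 0.0178 in the knock-out and 0.0211 in the wildtype (difference -0.00327). The SD of the difference between genotypes over a whole chromosome was 0.00359 on chromosome 6, 0.00335 on chromosome 11, 0.00412 on chromosome 15 and 0.00369 on chromosome 2, so these differences were smaller than that SD. Of the 45 single bins, 4 moved by more than it. At Hoxa these were the bins from 53000001 (0.0415 in the knock-out and 0.0376 in the wildtype) and from 53200001 (0.0461 in the knock-out and 0.0417 in the wildtype). At Hoxd they were the bin from 75000001 (-0.0196 in the knock-out and -0.0153 in the wildtype) and the bin from 75200001, which moved the most. The Hoxa bin from 53200001 lies mostly beyond the 1 Mb flank, which ends at 53220000. The sign differed between genotypes in 2 of the 45 bins, both at Hoxd. The shares of all bins that moved by more than the SD or changed sign were not counted. Both counts are therefore only a description. In the bin from 75200001, which covers the inner part of the run of lower insulation scores, the eigenvector was -0.00146 in the knock-out and 0.00815 in the wildtype, a difference of -0.00961. In the bin from 74600001, at the anterior edge of the cluster, it was 0.00006 in the knock-out and -0.00047 in the wildtype, both close to 0.

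**Figure D5:**
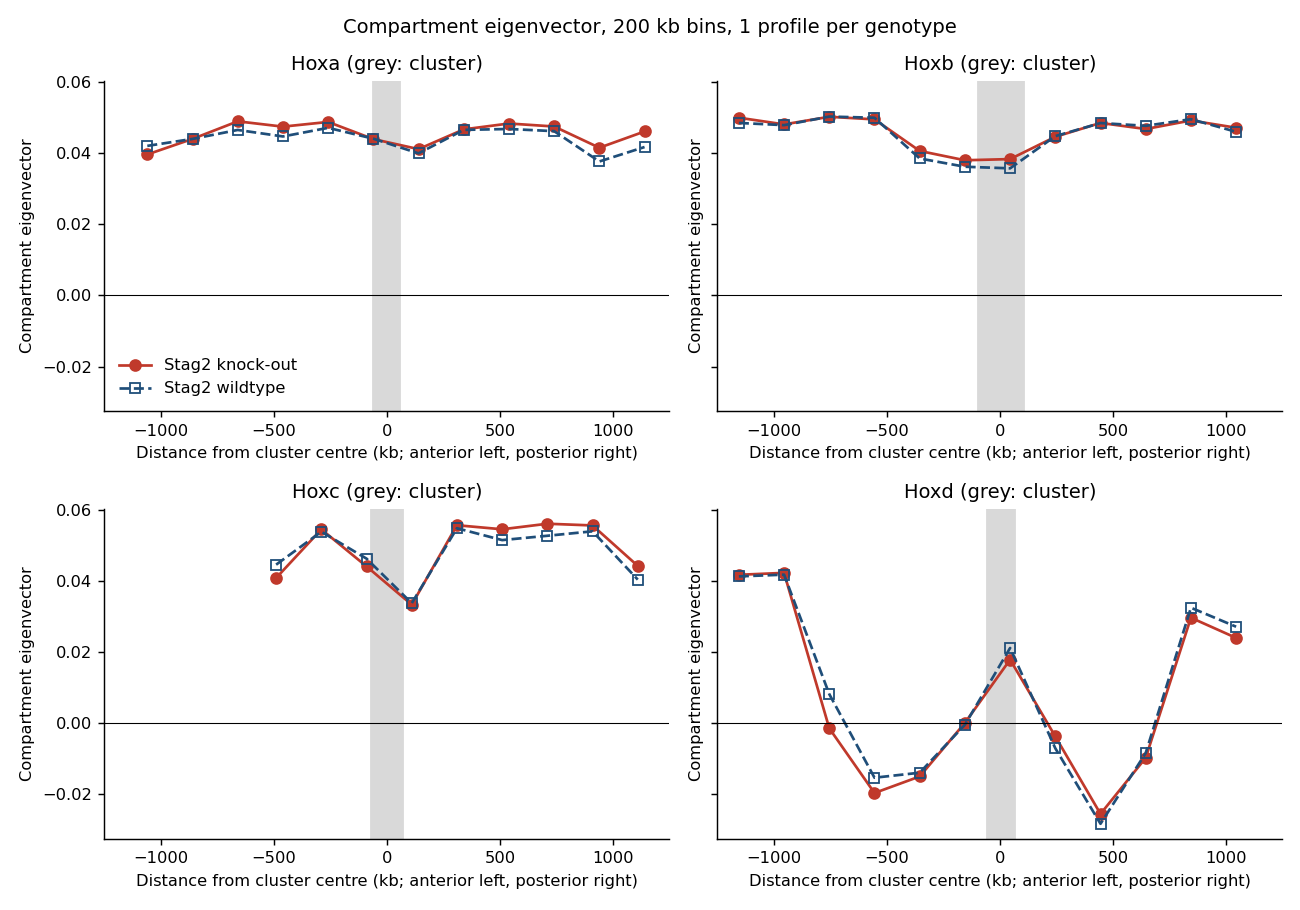
Compartment eigenvector (vertical axis, arbitrary units whose scale differs between chromosomes) in 200 kb bins against distance from the cluster centre (kb), with the knock-out as filled red points and the wildtype as open blue squares, 1 profile each. Hoxa, Hoxb and Hoxc stay above 0 in both genotypes, and Hoxd crosses 0 on both sides of the cluster.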

How the data were processed

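Hi-C libraries of lineage-depleted mouse bone marrow were made by the HiC 2.0 protocol with DpnII, per the labels. Per the file headers, the authors deposited an insulation score for each library (20 kb bins) and each genotype (10 kb bins), and an eigenvector score for each genotype (200 kb bins). Coordinates follow mm9, as the submitters' processing notes state. What aligner, filters, balancing, insulation window, log base and pooling were used is not given in the sources used here. In every bin, the deposited difference score equalled knock-out minus wildtype.

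Genotypes were taken from the labels, and replicate numbers in accession order only name libraries. The limma package (version 3.58.1, under R 4.3.3; lmFit and trended eBayes) was fitted to scores of 117252 bins, to running means of each segment's length (at least 80% of bins scored), to differences between flanks and to depths of 1905 boundaries (minima over 200 kb a side), each with Benjamini-Hochberg adjustment genome-wide at 0.05. The steps for bins and for 50-bin means were tested on simulated data. The bins named are the lowest, and for called bins the largest rise and fall, of each segment, plus a few highest bins chosen after their values were seen. Members and lists were chosen with earlier results of these data known. Leaving out libraries, other scalings, summaries and lengths were tried as alternatives. With 2 libraries per genotype and unknown depth, precision is limited by the spread of the libraries.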

Additional observations from a re-analysis of the deposited data

How the results depend on the processing

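The replicate numbers were given in accession order and pair nothing, so no fit used them. The titles allow a single pairing, by a suffix that replicate 2 of each genotype carries and whose meaning the labels do not give. A replicate block by this suffix left 143 bins called higher and 16 lower, beside 151 and 16 without it. Leaving out a library in turn gave 64 to 148 bins called higher and 5 to 23 lower. The same ranges for segment differences were 0.0376 to 0.121 (anterior Hoxa flank), 0.0762 to 0.0842 (posterior Hoxb flank), -0.00573 to 0.0445 (anterior Hoxc flank), 0.0393 to 0.0701 (posterior Hoxc flank), -0.0790 to -0.0461 (anterior Hoxd flank), -0.00632 to 0.0318 (Hoxd cluster) and 0.0864 to 0.131 (posterior Hoxd flank). The calls of the posterior Hoxa flank (0.140 to 0.179) and the anterior Hoxb flank (0.135 to 0.155) held without each library in turn. Flank asymmetry ranged from -0.102 to -0.0576 at Hoxa, -0.0481 to 0.000259 at Hoxc and -0.197 to -0.145 at Hoxd. Boundary depth changes ranged from -0.0162 to 0.0615 inside Hoxa and from -0.113 to 0.0134 at 230 kb from Hoxc. Leaving a library out leaves 1 library on its side, which is assumed to vary like the others.

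Subtracting the running mean left 0 bins called higher and 0 lower. It ended the calls of the anterior and posterior Hoxa flanks (0.00255 and 0.0170), the anterior and posterior Hoxb flanks (0.0143 and 0.00933) and turned the sign at the Hoxa, Hoxb, Hoxc and Hoxd clusters (-0.0788, -0.0148, -0.00911 and -0.0502) and at the anterior and posterior Hoxc flanks (-0.0192 and -0.00374). Its window is about as long as a flank, so it removes much of a flank's mean by construction. The calls of the anterior and posterior Hoxd flanks held in limma, with smaller differences. These were -0.0347 (adjusted p = 0.0178) and 0.0331 (adjusted p = 0.0186). An adjusted p below 0.01 left 43 higher and 6 lower. Unit SD per library ended the calls of the anterior Hoxa flank (0.130) and the anterior Hoxd flank (-0.105), turned the anterior Hoxc flank (-0.0138) and the depth inside Hoxa (-0.00710), and brought the Hoxa asymmetry past the threshold (-0.191). Removing chromosome medians gave 212 bins called higher (91 at Hoxb and 37 at Hoxd), brought the Hoxb cluster (0.117) and the posterior Hoxc flank (0.102) past the threshold and ended the call of the anterior Hoxd flank (-0.0394). The median over bins ended the posterior Hoxb flank (0.0526) and the Hoxd asymmetry (-0.103), turned the anterior Hoxd flank (0.0354) and brought the Hoxb asymmetry past the threshold (0.132). Flanks of 500 kb ended the posterior Hoxb flank (0.0574) and the Hoxd asymmetry (-0.0753), and turned the anterior Hoxd flank (0.0324) and the eigenvector difference of the posterior Hoxd flank (0.00305). The cause of each of these shifts was not tested.

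Flanks of 120 kb, added after seeing the data, gave 0.0256 and 0.0832 at the anterior and posterior flanks of Hoxa, 0.0693 and 0.0939 at those of Hoxb and 0.0217 and 0.0774 at those of Hoxd, and asymmetries of -0.0246 at Hoxb and -0.0558 at Hoxd. The 10 kb profiles gave 0.0266, -0.0265 and 0.113 at the anterior flank, cluster and posterior flank of Hoxa, 0.127 and 0.0722 at the anterior and posterior flanks of Hoxb, -0.0374 at the anterior flank of Hoxd, and a Hoxb asymmetry of 0.0546. The contrast of Hoxa and Hoxb with Hoxc and Hoxd turned with flanks subtracted (-0.0461). A reach of 100 kb turned the depth changes inside Hoxa (-0.00111) and 970 kb anterior of it (-0.0183). It gave no value for a boundary it no longer found, and 500 kb flanks gave none for the anterior Hoxc flank, where 120 kb are scored. Among the values of segments, asymmetries, called bins, boundaries and eigenvectors under these alternatives, 229 others kept their direction and their side of the threshold, or moved by less than the spread of the replicates.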

Other observations

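The 10 kb profiles, given once per genotype, placed the lowest bin within 300 kb of each cluster at the same position in both genotypes at Hoxa (52180001 to 52190000, inside the cluster), Hoxb (95990001 to 96000000) and Hoxc (102520001 to 102530000). At Hoxa this bin scored -0.0550 in the knock-out and -0.0557 in the wildtype. At Hoxb it scored -0.0122 in the knock-out and -0.100 in the wildtype, and at Hoxc -0.541 in the knock-out and -0.594 in the wildtype. At Hoxd the lowest bin was the one from 74890001 in the knock-out (-0.00543), beside the one from 74900001 in the wildtype (-0.0576).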
